A study of Mus musculus with 30 samples.

Results

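The genes described here are the potassium channel genes expressed in mouse retinal ganglion cells (RGCs), followed over 4 days after crush of the optic nerve. They are all 75 rows of the RNA count table, among 13752, whose gene symbol begins with Kcn. The rule reads the name alone and uses no measured value. By name they fall into 15 pore-forming subunits of the Kv1 to Kv4 families, 8 silent Kv subunits, 4 Kv7 subunits, 7 subunits of the EAG, ERG and ELK families, 11 inward rectifiers, 8 two-pore leak channels, 7 calcium- or sodium-activated channels, 12 accessory subunits and 3 transcripts that encode no channel subunit. All 75 passed the filter on low counts and were tested, among 13737 genes tested in all.

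The study asked how expression and chromatin of these neurons, whose axons form the optic nerve, change after axon injury. RGCs were sorted by fluorescence from papain-dissociated retina on days 1, 2, 3 and 4 after crush and from mice without crush, called day 0. The RNA libraries were 3, 3, 2, 3 and 2 for days 0 to 4, while replicate 3 of day 2 and replicate 1 of day 4 were not analysed here. ATAC-seq, which marks accessible DNA by transposase insertion, had 6, 3 and 6 libraries for days 0, 1 and 3. The labels give the strain as C57BL/6 for every sample except day 0 RNA replicates 2 and 3, which carry C57BL/7 and C57BL/8, and name no transgene, age or sorting marker. They do not say whether replicates are separate animals, so a p-value reflects only how far these libraries differ from each other, perhaps for technical reasons.

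Days are those of the labels, and 1 conflict bears on every value given for days 2 and 3. The authors' deposited table holds a comparison of day 3 with no crush, yet over 13737 genes its fold changes followed those of the count libraries labelled day 2. After removal of a constant offset of -0.07 the median absolute difference from the labelled day 2 was 0.00056 on the log2 scale, against 0.298 from the labelled day 3. All 75 potassium channel genes were nearest to the labelled day 2, while the authors' day 1 comparison was nearest to the labelled day 1 for all 75. The files do not settle which label is right, so each statement about day 2 or day 3 RNA refers to the libraries that carry that label, and no order of days 2 and 3 should be read from them.

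RNA libraries held 19024286 to 27561352 counts in genes. The 11 RGC markers summed to 10360 to 11450 CPM (read counts relative to library size, scaled by the TMM method) on day 0, 7509 to 9411 on day 1, 6838 to 7382 on day 2, 7601 to 8161 on day 3 and 6474 to 6770 on day 4. Of these 11, 9 were lower on day 4 without overlap, Slc17a6 was higher and Pou4f3 overlapped day 0. Nefl moved most, and without it the sums were 5184 to 5494 CPM on day 4 and 7236 to 7944 CPM on day 0. Markers of other retinal cells were present at lower sums. The 7 amacrine and horizontal cell markers in the table summed to 638 to 676 CPM on day 4 and 1058 to 1156 CPM on day 0. Most of that difference was Calb2, and without it the sums overlapped, at 369.8 to 388 CPM on day 4 and 184 to 435 CPM on day 0. Of these 7 markers, 2 were lower on day 4 without overlap and 5 overlapped day 0. The 8 Mueller glia and astrocyte markers summed to 855 to 907 CPM on day 4 and 325 to 384 CPM on day 0. Most of that difference was Clu, and without it they summed to 308 to 346 CPM on day 4 and 183 to 259 CPM on day 0. Of these 8, 5 were higher on day 4 without overlap and 3 (Slc1a3, Aqp4 and Apoe) overlapped day 0. The 6 rod markers varied within day 0 itself, 224 to 1025 CPM. Of 8 microglia and macrophage markers, 6 were higher on day 4 without overlap and 2 (Aif1 and Ptprc) overlapped day 0. Bipolar cell markers summed to 121 to 164 CPM over all libraries and cone markers to 10.4 to 30.4, and of the oligodendrocyte, vascular and pigment epithelium lists 2 of 6, 3 of 7 and 1 of 5 markers were in the table. No marker in the table was at 0 in all libraries, and the part of these cells in the results was not tested. In bulk RNA, fewer cells of a type and less RNA per cell cannot be told apart.

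Potassium channels set the resting potential of a neuron, repolarise it after each action potential and decide how fast it can fire again. Voltage-gated Kv channels are tetramers that open on depolarisation, inward rectifiers and two-pore channels act mostly near rest, and calcium- or sodium-activated channels open when those ions enter during activity. Kv1 channels lie along axons beside the nodes of Ranvier, Kv7 channels at the axon initial segment and nodes, and Kv3 channels support the brief spikes of fast-firing cells such as RGCs.

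Most of the change was loss. The 75 genes together took 0.763, 0.695 and 0.687% of all counts in the day 0 libraries, 0.599, 0.619 and 0.594% on day 1, 0.502 and 0.490% on day 2, 0.395, 0.384 and 0.393% on day 3 and 0.356 and 0.366% on day 4, with no overlap between any later day and day 0. On day 1, 12 genes fell and 1 rose (background: 5.45% of all genes tested were lower and 5.93% higher; edgeR quasi-likelihood test, adjusted p under 0.05). On day 2, 24 fell and 4 rose (background 14.5% and 14.8%). On day 3, 37 fell and 6 rose (background 20.1% and 20.4%), and on day 4, 40 fell and 3 rose (background 19.0% and 19.8%). As shares of the 75, the falls were 16.0%, 32.0%, 49.3% and 53.3% on days 1 to 4, above the background on each day, and the rises were 1.33%, 5.33%, 8.00% and 4.00%, below it. The median log2 fold change of the 75 genes was -0.18, -0.41, -0.67 and -0.93 on days 1 to 4, while the median of all genes tested lay between 0.01 and 0.06. Called and at least 2-fold lower were 24 genes on day 3 and 28 on day 4 (background 8.44% and 8.76%). The few rises moved most when 1 library was left out. Day 1 had 3 without day 0 replicate 1 and 0 without day 0 replicate 2 or 3, day 3 replicate 3 or any library of day 1 or 4, day 2 had 1 without day 0 replicate 3 and 2 without day 0 replicate 2 or either day 2 library, and day 4 had 5 without day 0 replicate 1.

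**Figure D1:**
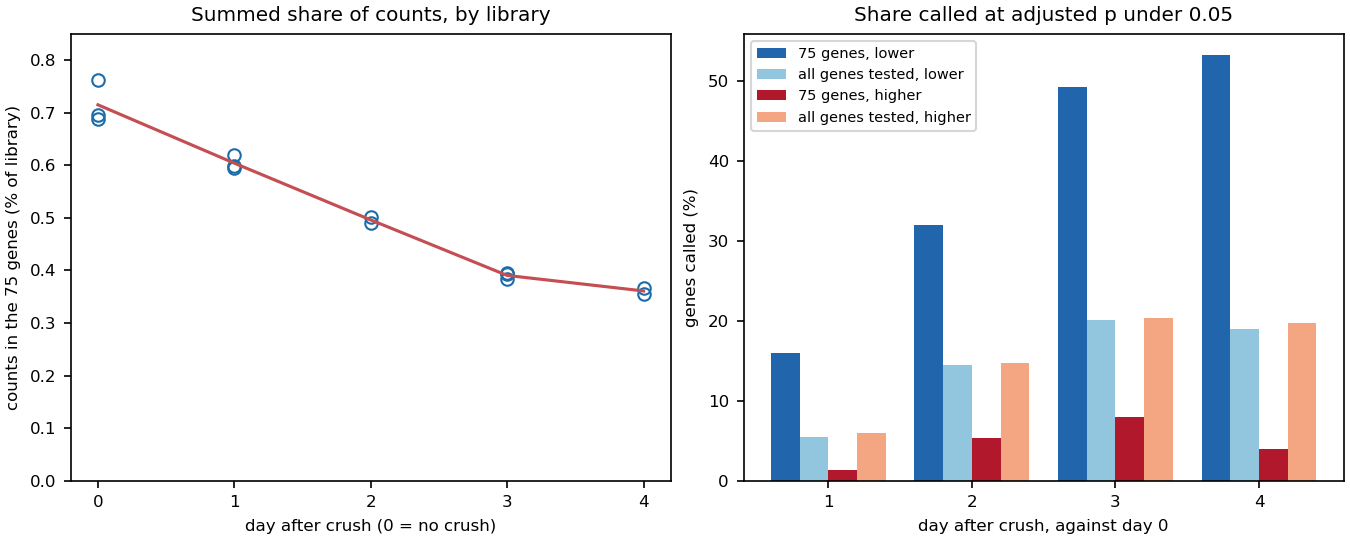
Left, share of each RNA library's counts in the 75 potassium channel genes (circles, % of library; line, mean of the day) against labelled day after crush. Right, bars give the percentage of genes called lower or higher than day 0, for the 75 genes and for all genes tested. The share of counts lies at 0.356% to 0.366% on day 4 and 0.687% to 0.763% on day 0, and the bars for lower calls of the 75 genes stand above those of all genes on every day.

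Among the Kv1 to Kv4 subunits, which form the classical delayed rectifier and A-type currents, 7, 10, 12 and 12 of 15 fell on days 1 to 4 and none rose, a larger share than in any other class on each day. The size of the fall was not the largest there on days 3 and 4. The median log2 fold change was -0.97 and -0.94 in this class and -1.34 and -1.75 in silent Kv subunits. It was -0.99 and -1.03 in inward rectifiers and -0.93 and -0.97 in calcium- or sodium-activated channels. Other classes had smaller median falls, except a rise on day 4 in the rows that encode no channel subunit. Kcna2 (chromosome 3, 107101146 to 107115005, plus strand; mm10), which encodes the axonal Kv1.2, had 1552, 1477 and 1507 CPM on day 0, 1103, 1157 and 948 on day 1, 748 and 782 on day 2, 521, 442 and 443 on day 3 and 328 and 351 on day 4. Each later day lay below day 0 with no overlap. Its fall was log2 -0.50 ± 0.08 (SE, edgeR adjusted p = 0.000962) on day 1 and log2 -2.16 ± 0.10 (SE, edgeR adjusted p = 7.02e-11) on day 4. Kcna1, which encodes Kv1.1, the usual partner of Kv1.2 in axonal channels, had 403, 291 and 303 CPM on day 0, 304, 341 and 283 on day 1, 243 and 226 on day 2, 383, 340.5 and 329 on day 3 and 270.1 and 271 on day 4. Its day 3 values overlapped those of day 0, and it passed the test on day 2 alone (log2 -0.50 ± 0.12, SE, edgeR adjusted p = 0.00596), a call lost without day 2 replicate 2 (adjusted p = 0.0757). The log2 ratio of Kcna2 to Kcna1 within a library was 1.94 to 2.34 on day 0, 1.74 to 1.86 on day 1, 1.62 to 1.79 on day 2, 0.38 to 0.44 on day 3 and 0.28 to 0.37 on day 4. The pair was chosen after its values were seen, and the ratio was not tested. The other Kv1 genes called were Kcna4 (log2 -0.74 on day 3 and -0.88 on day 4) and Kcna6 (-0.67 and -0.94), while Kcna3 (-0.01, 0.16, 0.18 and 0.21 on days 1 to 4) and Kcna5 (0.04, 0.37, -0.24 and 0.24) did not pass.

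Among the Kv3 genes, Kcnc1 (Kv3.1) had 650.3, 543 and 527 CPM on day 0, 425, 463 and 430.0 on day 1, 333 and 321 on day 2, 236, 237 and 216 on day 3 and 237 and 240.0 on day 4. It was lower than day 0 in every library of every later day, with log2 -1.32 ± 0.08 (SE, edgeR adjusted p = 1.72e-09) on day 3. Kcnc2 fell on days 2, 3 and 4 (log2 -0.66, -1.03 and -1.16) and Kcnc4 on all 4 days (-0.47, -0.52, -0.97 and -0.67), the day 2 call of Kcnc4 being lost without day 2 replicate 1 (adjusted p = 0.0501). Kcnb2 (Kv2.2), a delayed rectifier, fell on days 3 and 4 (log2 -0.70 and -0.66), on day 4 not without day 4 replicate 3 (adjusted p = 0.0833).

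The 3 Kv4 genes, which encode A-type channels of soma and dendrites, differed in their course. Kcnd2 had 120.2, 143 and 155 CPM on day 0, 99.0, 94.7 and 89.0 on day 1, 69.1 and 71.0 on day 2, 41.8, 54.4 and 46.1 on day 3 and 43.2 and 34.8 on day 4, each later day below day 0, and reached log2 -1.84 ± 0.14 (SE, edgeR adjusted p = 2.41e-08) on day 4. Kcnd3 had 346, 302 and 318 CPM on day 0, 236, 238 and 218 on day 1, 244 and 210.0 on day 2, 241, 209.6 and 201 on day 3 and 273 and 258 on day 4. Its fall was present on day 1 (log2 -0.48 ± 0.09, SE, edgeR adjusted p = 0.00214) and smallest on day 4 (log2 -0.28 ± 0.10, SE, edgeR adjusted p = 0.0353), where the call was lost without day 0 replicate 1 or without either day 4 library (adjusted p = 0.0772 to 0.201). Kcnd3 overlaps the opposite-strand transcript Kcnd3os at its start only (chr3:105452330-105452955). Counts were not strand-specific, so reads from that shared stretch cannot be told apart by strand. Kcnd1, with few counts, fell on days 2, 3 and 4 (log2 -1.62, -1.54 and -2.69). Its values depended on single libraries: on day 2 the call was lost without day 0 replicate 2 or day 2 replicate 1 (adjusted p = 0.104 and 0.251) and the log2 fold change was -2.30 without day 2 replicate 2. On day 3 it was lost without day 0 replicate 2 or day 3 replicate 3 (adjusted p = 0.0701 and 0.0545), and on day 4 the log2 fold change was -2.06 without replicate 2 and -3.75 without replicate 3.

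**Figure D2:**
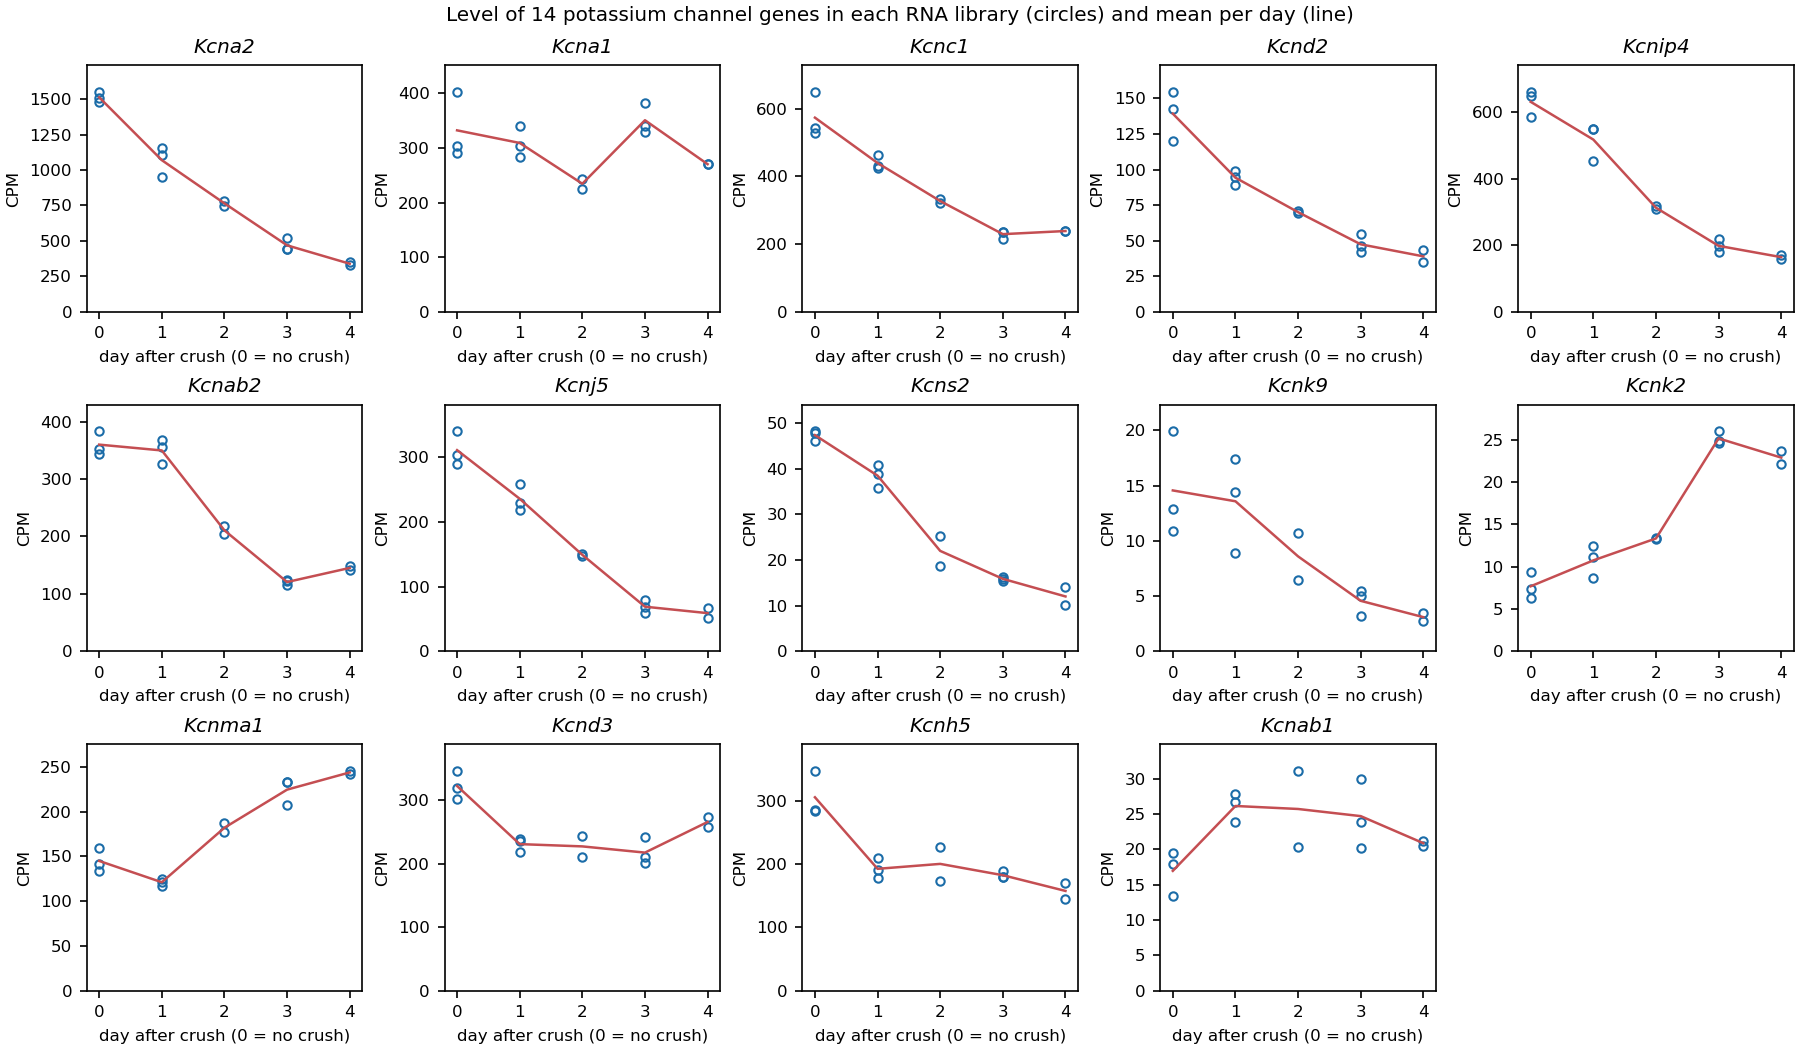
CPM (y axes, each from 0, scaled per gene) of 14 potassium channel genes in each RNA library (circles) against labelled day after crush, with the mean of each day joined by a line. Kcna2 lies at 328 to 351 CPM on day 4 and 1477 to 1552 CPM on day 0, Kcna1 stays between 226 and 403 CPM, and Kcnk2 and Kcnma1 are highest on days 3 and 4.

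Cytoplasmic partners of these channels split. Kcnip4, which encodes a calcium-binding KChIP subunit of Kv4 channels, had 646, 583 and 661 CPM on day 0, 549.8, 548 and 453 on day 1, 317 and 308 on day 2, 178, 219 and 196 on day 3 and 171 and 157 on day 4. It did not pass on day 1 (log2 -0.29 ± 0.09, SE, edgeR adjusted p = 0.0557) and was log2 -1.94 ± 0.11 (SE, edgeR adjusted p = 6.60e-10) on day 4, with every library of days 1 to 4 below those of day 0. It overlaps the gene 5730480H06Rik. Kcnip2 fell on days 2, 3 and 4 (log2 -1.11, -1.93 and -1.53), on day 2 not without replicate 1 or 2 of day 0 or replicate 2 of day 2 (adjusted p = 0.0723 to 0.303) and on day 4 not without day 4 replicate 2 (0.0678). Kcnip1 and Kcnip3 fell on day 4 alone (log2 -0.93 and -0.71). Kcnip1 overlaps Kcnmb1. Kcnip3 is also known as DREAM, a calcium-dependent transcriptional repressor.

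Of the Kv1 beta subunits, which bind the channel in the cytoplasm, Kcnab2 had 353, 344 and 383 CPM on day 0, 327, 355 and 368 on day 1, 204 and 218 on day 2, 115, 122 and 125 on day 3 and 149 and 142 on day 4. Its day 1 values overlapped day 0, and all later ones lay below (log2 -1.58 ± 0.08, SE, edgeR adjusted p = 9.88e-11 on day 3). Kcnab3 fell on the same 3 days (log2 -0.57, -0.97 and -1.37), on day 2 not without day 2 replicate 2 (adjusted p = 0.0778). Kcnab1, whose product can confer fast inactivation, had 19.5, 17.9 and 13.5 CPM on day 0, 26.7, 23.9 and 27.8 on day 1, 31.1 and 20.3 on day 2, 29.9, 20.2 and 23.9 on day 3 and 21.2 and 20.5 on day 4. All libraries of days 1 to 4 were above those of day 0, but the size was small (log2 0.63 ± 0.19, SE, edgeR adjusted p = 0.0464 on day 1, log2 0.60 on day 2 and 0.54 on day 3) and the calls depended on single libraries. The day 1 call was lost in 8 of the 13 fits that left out 1 library (adjusted p = 0.0587 to 0.159), among them every day 1 library and day 0 replicates 2 and 3, the day 2 call in 9 (adjusted p = 0.052 to 0.529), and the day 3 call in 4 (adjusted p = 0.0544 to 0.161). In those fits its log2 fold change was 0.46 to 0.69 on day 1, 0.26 to 0.62 on day 2 and 0.38 to 0.57 on day 3. Kcnab1 overlaps A730090N16Rik and Kcnab2 overlaps Nphp4. The BK accessory genes Kcnmb1, Kcnmb2 and Kcnmb4 and the single-pass subunit genes Kcne2 and Kcne4 were called on no day. In all, 0, 4, 4 and 6 of 12 accessory genes fell on days 1 to 4, and 1, 1, 1 and 0 rose.

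Silent Kv subunits form no channel alone and join Kv2 subunits to alter their gating. Of 8, none was called on day 1, and 2, 4 and 4 fell on days 2, 3 and 4. Kcns2 had 48.2, 47.8 and 46.0 CPM on day 0, 38.8, 35.8 and 40.8 on day 1, 25.2 and 18.8 on day 2, 15.8, 16.3 and 15.5 on day 3 and 14.0 and 10.0 on day 4, with log2 -1.97 ± 0.18 (SE, edgeR adjusted p = 1.33e-07) on day 4 and no overlap with day 0 on any later day. Kcng4 fell on days 2, 3 and 4 (log2 -1.24, -1.59 and -2.18), on day 2 not without day 0 replicate 1 or either day 2 library (adjusted p = 0.0933 to 0.13). Kcng3 fell on day 3 (log2 -1.72 ± 0.47, SE, edgeR adjusted p = 0.00726; log2 -2.53 without day 3 replicate 1) and day 4 (log2 -1.95, lost without either day 4 library, adjusted p = 0.0517 to 0.0791). Kcng1 had only 35, 26 and 29 counts on day 0, 13, 8 and 27 on day 1, 3 and 16 on day 2, 8, 4 and 2 on day 3 and 9 and 0 on day 4. It was called lower on days 3 and 4, but lost those calls when single libraries were left out (adjusted p = 0.0559 to 0.0887 without replicate 1 of day 0 or replicate 2 or 3 of day 3, and 0.0524 to 0.229 without day 0 replicate 1, day 3 replicate 2 or day 4 replicate 3), and its fold is not given for day 4, where 1 library had no counts. Kcnf1, Kcng2, Kcns3 and Kcnv2 were called on no day. Kcnv2, best known from photoreceptors, had log2 0.73, -0.76, 0.56 and -0.23 on days 1 to 4 beside the rod marker sums of 224 to 1025 CPM on day 0, 791 to 1032 on day 1, 264 to 338 on day 2, 641 to 779 on day 3 and 300 to 649 on day 4.

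Kv7 channels carry the M-current, which damps repetitive firing. Kcnq3, an M-channel subunit, had 41.9, 51.8 and 51.0 CPM on day 0, 40.4, 46.7 and 48.7 on day 1, 49.0 and 47.8 on day 2, 41.1, 41.1 and 40.2 on day 3 and 38.1 and 35.5 on day 4. Its fall passed on day 4 alone (log2 -0.39 ± 0.13, SE, edgeR adjusted p = 0.0239) and was lost without day 0 replicate 2 or 3 or either day 4 library (adjusted p = 0.0629 to 0.149). Kcnq5 likewise passed on day 4 alone (log2 -0.93 ± 0.32, SE, edgeR adjusted p = 0.0279), and not without day 4 replicate 2 (adjusted p = 0.2).

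In the EAG, ERG and ELK families, named after fly channels and their mammalian relatives, 2, 2, 4 and 3 of 7 fell on days 1 to 4 and none rose. Kcnh5 had 347, 283 and 286 CPM on day 0, 191, 209 and 177 on day 1, 173 and 227 on day 2, 179, 189 and 179.7 on day 3 and 171 and 145 on day 4. It had fallen on day 1 (log2 -0.67 ± 0.11, SE, edgeR adjusted p = 0.000909) and was log2 -0.95 ± 0.13 on day 4, with no overlap with day 0 on any day. Kcnh1 fell on days 2, 3 and 4 (log2 -1.08, -1.42 and -1.22). Kcnh7 fell on days 1, 3 and 4 (log2 -0.45, -0.35 and -0.65), but not on day 1 without day 1 replicate 3 (adjusted p = 0.077) nor on day 3 without day 0 replicate 1 or day 3 replicate 3 (0.0594 to 0.0911). Kcnh8 was called on day 3 alone (log2 -0.76). Kcnh2, which encodes the ERG channel of cardiac repolarisation, had log2 -0.30, -0.22, -0.05 and -0.18 and was called on no day, as were Kcnh4 and Kcnh6. Kcnh1 overlaps Hhat, and Kcnh7 overlaps Gca.

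Inward rectifiers pass current best below the resting potential, and Kir3 channels (Kcnj3, Kcnj5, Kcnj6 and Kcnj9) are opened by G proteins. Of 11 genes, 1, 3, 6 and 6 fell on days 1 to 4 and none rose. All 4 Kir3 genes fell on days 3 and 4. Kcnj5 (chromosome 9, 32314707 to 32344350, minus strand) had 289, 303 and 340.1 CPM on day 0, 259, 229.6 and 218 on day 1, 151 and 147 on day 2, 58.9, 78.9 and 69.2 on day 3 and 67.1 and 50.9 on day 4, with no overlap with day 0 on any day, and was log2 -2.17 ± 0.12 (SE, edgeR adjusted p = 4.54e-10) on day 3 and log2 -2.40 ± 0.14 on day 4. Its small day 1 fall (log2 -0.40) was lost without replicate 2 or 3 of day 0 or replicate 2 or 3 of day 1 (adjusted p = 0.0522 to 0.125). Kcnj3 had log2 -0.14, -0.99, -1.75 and -2.34 on days 1 to 4, called on days 2, 3 and 4, on day 2 not without either day 2 library (adjusted p = 0.0501 to 0.107). Kcnj6 fell on days 3 and 4 (log2 -1.08 and -1.03) and Kcnj9 on days 2, 3 and 4 (-0.70, -0.99 and -0.97). Of the strong rectifiers of the Kir2 family, Kcnj2 and Kcnj12 were called on days 3 and 4 and Kcnj14 on no day. Kcnj2 had 4.49, 9.33 and 9.92 CPM on day 0, 9.43, 9.81 and 8.46 on day 1, 10.9 and 8.45 on day 2, 0.713, 1.48 and 2.84 on day 3 and 2.50 and 1.52 on day 4. Days 1 and 2 overlapped day 0, while all libraries of days 3 and 4 lay below it. The fall was log2 -2.24 ± 0.42 (SE, edgeR adjusted p = 0.000399) on day 3 (log2 -2.85 without day 3 replicate 3) and log2 -1.97 on day 4, lost there without day 4 replicate 3 (adjusted p = 0.0565). Kcnj12 had log2 -0.24, -0.87, -2.22 and -1.74 and passed on days 3 and 4.

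Kcnj10, Kcnj11, Kcnj13, Kcnj14 and Kcnj16 were called on no day. Kcnj10 encodes Kir4.1, known as the main potassium channel of Mueller glia, and had 1.08, 1.51 and 0.0778 CPM on day 0, 3.49, 3.93 and 1.85 on day 1, 1.78 and 0.357 on day 2, 1.47, 2.27 and 1.13 on day 3 and 1.68 and 4.83 on day 4. Most libraries of days 1 to 4 lay above those of day 0. Beside it, the Mueller glia and astrocyte marker sums were 325 to 384 CPM on day 0, 438 to 719.8 on day 1, 469 to 476 on day 2, 539 to 615 on day 3 and 855 to 907 on day 4. Without Clu they were 183 to 259 CPM on day 0, 214 to 508 on day 1, 219 to 222 on day 2, 200.5 to 237 on day 3 and 308 to 346 on day 4, so the markers did not move together, and the part of glial RNA was not tested. Kcnj13 overlaps Gigyf2.

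The two-pore leak channels, which hold the resting potential, moved in both directions: 0, 2, 3 and 3 of 8 fell on days 1 to 4 and 0, 1, 3 and 1 rose. Kcnk2 (chromosome 1, 189207930 to 189402273, minus strand), which encodes TREK-1, a channel opened by stretch, heat and some lipids, had 7.31, 9.41 and 6.34 CPM on day 0, 12.4, 11.2 and 8.65 on day 1, 13.3 and 13.4 on day 2, 24.8, 26.0 and 24.6 on day 3 and 23.7 and 22.1 on day 4. Day 1 overlapped day 0 and every later library lay above it. The rise was log2 0.80 ± 0.21 (SE, edgeR adjusted p = 0.00771) on day 2, log2 1.71 ± 0.19 (SE, edgeR adjusted p = 1.31e-06) on day 3 and log2 1.57 ± 0.20 (SE, edgeR adjusted p = 8.37e-06) on day 4. Kcnk9, which encodes the acid-sensitive TASK-3, had 19.9, 12.9 and 10.9 CPM on day 0, 14.4, 8.93 and 17.4 on day 1, 10.7 and 6.43 on day 2, 5.03, 5.50 and 3.17 on day 3 and 2.73 and 3.46 on day 4. It was log2 -1.67 ± 0.32 (SE, edgeR adjusted p = 0.000458) on day 3 and log2 -2.23 ± 0.38 on day 4, with no overlap with day 0. Within a library the log2 ratio of Kcnk2 to Kcnk9 was 2.68 to 3.12 on day 4 and -1.45 to -0.45 on day 0, a pair chosen after its values were seen and not tested.

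Kcnk1 and Kcnk12 rose on day 3 alone (log2 0.44 and 0.83). Kcnk4, a relative of TREK-1, fell on days 2, 3 and 4 (log2 -1.82, -1.67 and -2.40), with day 2 at log2 -2.52 without day 2 replicate 2 and not called without day 2 replicate 1 (adjusted p = 0.172). Kcnk3, which encodes TASK-1, fell on days 2 and 4 (log2 -0.94 and -1.17), on day 2 not without day 2 replicate 2 (adjusted p = 0.149). Kcnk3 overlaps Gm9899. Kcnk10 did not pass (log2 0.50, 0.23, -0.19 and -0.98). Kcnk6 had 33, 13 and 18 counts on day 0, 44, 9 and 43 on day 1, 66 and 62 on day 2, 6, 5 and 2 on day 3 and 40 and 58 on day 4. It was called lower on day 3 (log2 -2.41 ± 0.76, SE, edgeR adjusted p = 0.0181), but not without day 0 replicate 1 (log2 -1.78, adjusted p = 0.0862) or day 3 replicate 3 (log2 -2.07, 0.0717). The 8 microglia and macrophage markers were also lowest on day 3, with sums of 37.8 to 68.7 CPM on day 0, 54.4 to 295 on day 1, 134 to 163 on day 2, 21.6 to 31.8 on day 3 and 97.2 to 161 on day 4, and their part was not tested.

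Channels opened by calcium or sodium were also split. Kcnma1 (chromosome 14, 23289431 to 24014491, minus strand) encodes the pore of the large-conductance BK channel, which couples calcium entry to repolarisation, and had 159, 142 and 134 CPM on day 0, 125, 121 and 117 on day 1, 177 and 187 on day 2, 233, 233 and 208 on day 3 and 242 and 246 on day 4. Day 1 lay below day 0 without passing the test (log2 -0.26 ± 0.08, SE, edgeR adjusted p = 0.0544), and days 2, 3 and 4 lay above it. The rise was log2 0.63 ± 0.08 (SE, edgeR adjusted p = 9.46e-06) on day 3 and log2 0.75 ± 0.09 (SE, edgeR adjusted p = 4.24e-06) on day 4. On day 2 it was log2 0.33 and lost without day 0 replicate 3 or day 2 replicate 2 (adjusted p = 0.0663 to 0.113). The SK channel genes Kcnn1 and Kcnn2, whose products carry the medium after-hyperpolarisation, fell on days 3 and 4. Kcnn2 had 36.5, 24.7 and 22.6 CPM on day 0, 27.3, 25.9 and 25.1 on day 1, 24.0 and 18.5 on day 2, 10.9, 11.0 and 13.6 on day 3 and 14.0 and 8.39 on day 4 and was log2 -1.24 ± 0.22 (SE, edgeR adjusted p = 0.000182) on day 3. Kcnn1 (log2 -0.93 and -1.22 on days 3 and 4) was lost on day 3 without replicate 1 or 3 of day 0 or replicate 1 or 2 of day 3 (adjusted p = 0.0697 to 0.122) and on day 4 without day 4 replicate 2 (0.184). Kcnn3 did not pass (log2 0.73, 0.69, 0.09 and -0.10), nor did Kcnu1. Kcnu1 was placed in this class by name, not for a known opening by calcium or sodium.

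The sodium-activated genes moved apart. Kcnt1, which encodes Slack, had 53.9, 47.3 and 51.4 CPM on day 0, 43.1, 51.5 and 56.9 on day 1, 55.4 and 57.2 on day 2, 22.8, 25.1 and 28.6 on day 3 and 19.4 and 24.9 on day 4. Day 1 overlapped day 0, day 2 lay above it without passing the test, and days 3 and 4 lay below it (log2 -0.99 ± 0.14, SE, edgeR adjusted p = 1.65e-05 on day 3 and log2 -1.20 ± 0.16 on day 4). Kcnt2, which encodes Slick, had 30, 2 and 4 counts on day 0, 8, 20 and 21 on day 1, 47 and 50 on day 2, 133, 54 and 113 on day 3 and 38 and 31 on day 4. Its rise on day 3 was log2 2.81 ± 0.79 (SE, edgeR adjusted p = 0.00875), and log2 5.02 without day 0 replicate 1, which held most of the day 0 counts. It was called on no other day. Kcnn2 overlaps A330093E20Rik.

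The rows that encode no channel subunit were Kcnq1ot1, Kcnd3os and Kcnrg. Kcnq1ot1 is a long noncoding RNA transcribed across Kcnq1 from an imprinted locus (chromosome 7, 143203458 to 143296549, minus strand), and had 172, 163 and 149 CPM on day 0, 101, 115 and 113 on day 1, 253 and 221 on day 2, 140.3, 137 and 230.5 on day 3 and 219 and 273 on day 4. It was called lower on day 1 (log2 -0.56 ± 0.16, SE, edgeR adjusted p = 0.0293) and higher on day 2 (log2 0.55 ± 0.17, SE, edgeR adjusted p = 0.0229) and day 4 (log2 0.61 ± 0.17, SE, edgeR adjusted p = 0.0096), the one gene of the 75 called in both directions. Day 1 lay below day 0 and days 2 and 4 above it, without overlap, while day 3 overlapped it. Leaving out 1 library ended the day 1 call in 5 fits (any day 1 library, or day 0 replicate 1 or 2; adjusted p = 0.0533 to 0.0855), the day 2 call in 4 (either day 2 library, or day 0 replicate 2 or 3; 0.0529 to 0.168) and the day 4 call without day 4 replicate 3 (0.146). Kcnd3os and Kcnrg were called on no day, and Kcnrg overlaps Dleu2.

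**Figure D3:**
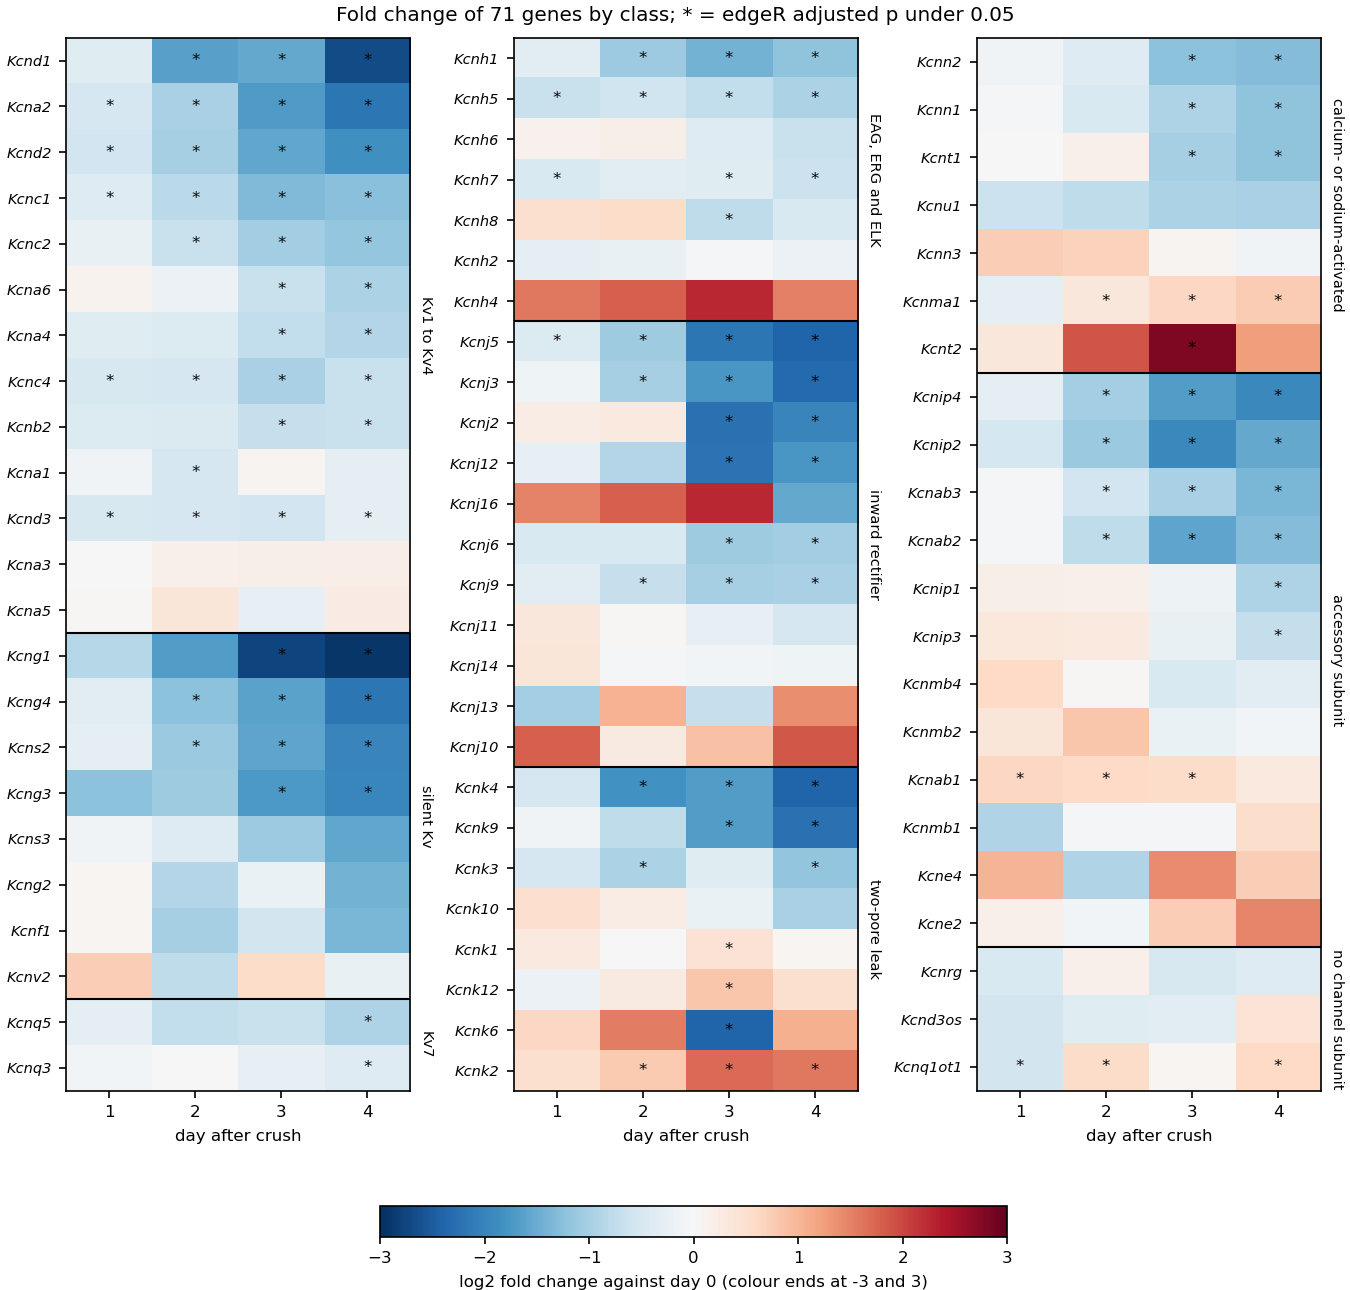
Log2 fold change against day 0 (colour, blue lower and red higher, ending at -3 and 3) of 71 of the 75 genes in rows, grouped by class and ordered within a class by the day 4 value, for labelled days 1 to 4 in columns. Asterisks mark edgeR adjusted p under 0.05, and every Kv1 to Kv4 gene drawn with an asterisk on day 4 is blue.

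Across all 4 days together, the test of any effect of day called 47 of the 75 genes (62.7%; background 47.1% of all genes tested). By class these included 13 of 15 Kv1 to Kv4 genes, 7 of 8 two-pore genes, 7 of 11 inward rectifiers, 6 of 12 accessory genes, 5 of 7 calcium- or sodium-activated genes, 4 of 7 EAG, ERG and ELK genes, 3 of 8 silent subunits and 1 of the 3 rows that encode no channel subunit. In the separate comparisons, 10 genes were called lower on all 4 days (background 3.50%), among them Kcna2, Kcnc1, Kcnc4, Kcnd2, Kcnd3, Kcnh5 and Kcnj5. Called lower on both day 3 and day 4 were 35 (background 15.6%), and called on no day 25 (background 46.7%). These 4 comparisons share the day 0 libraries. Day 3 against day 1, which does not use them, had 31 genes lower and 5 higher (background 17.5% and 16.1%). The median log2 fold change of the 75 genes was -0.56 there, against 0.0013 for all genes tested. In the authors' deposited table, at adjusted p under 0.05, 6 of the 75 were lower on day 1 (background over all its genes, 2.16%) and 23 in the comparison headed day 3 (background 11.3%), and 0 were higher in either (background 3.10% on day 1 and 8.40% in that headed day 3). In the fits made here the libraries labelled day 2, which that table's day 3 followed, gave 24 lower and 4 higher.

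Genes that bind, place or regulate potassium channels but lie outside the family by name were read from a list of 39, of which 38 were tested. On days 1 to 4, 9, 18, 24 and 22 were lower and 0, 0, 3 and 4 higher. As shares of the 38, 23.7%, 47.4%, 63.2% and 57.9% were lower (background 5.45%, 14.5%, 20.1% and 19.0%), and 0%, 0%, 7.89% and 10.5% higher (background 5.93%, 14.8%, 20.4% and 19.8%). The median log2 fold changes were -0.24, -0.44, -0.47 and -0.58, and those of all genes tested 0.01, 0.04, 0.03 and 0.06. Dpp10, a single-pass partner of Kv4 channels, fell on days 2, 3 and 4 (log2 -1.08, -2.54 and -3.08, with SE 0.16 and edgeR adjusted p = 1.92e-10 on day 4). Lgi3, a secreted protein bound to Kv1 channel complexes, fell on days 2, 3 and 4 (log2 -1.32, -2.27 and -2.80). So did Adam11, of the family that binds Lgi proteins (log2 -0.96, -2.10 and -2.05). The product of the calmodulin genes Calm2 and Calm3 is the calcium sensor of SK and Kv7 channels. Both fell on all 4 days, Calm2 by log2 -0.22, -0.78, -0.87 and -0.90 and Calm3 by log2 -0.46, -1.23, -1.21 and -1.18. Cntnap2, which holds Kv1 channels beside the node, rose on day 3 (log2 0.59 ± 0.09, SE, edgeR adjusted p = 5.54e-05) and day 4 (log2 0.50). Rest, a repressor of neuronal genes, was at log2 0.59 on day 3, where it did not pass, and rose on day 4 (log2 1.18 ± 0.27, SE, edgeR adjusted p = 0.00206). Ank3, which anchors Kv7 channels at the initial segment, was at log2 -0.41, -0.27, -0.42 and -0.40 on days 1 to 4 and passed on days 1, 3 and 4. Adam11, Cntnap2, Rest and Ank3 were chosen after their values were seen.

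Open chromatin at these genes was read from 151630 ATAC peaks, tested with the authors' batch as a term. Of the peaks the authors annotated to one of the 75 genes, 138 lay at promoters of 69 genes and 465 elsewhere at 64 genes. Batch 2 holds day 0, day 1 and day 3 replicates 1 to 3, and batch 1 day 0 and day 3 replicates 4 to 6, so day 1 has 1 batch. The fraction of reads in peaks moved with day, at 0.322 to 0.496 on day 0, 0.157 to 0.186 on day 1 and 0.173 to 0.456 on day 3, and its part in the results was not tested. Libraries held 20006724 to 72579102 counts in peaks. Free-text descriptions of the ATAC samples name peak files of other days, and the grouping follows titles and treatment labels.

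On day 3, promoter peaks of potassium channel genes were more often lower than higher. Of the 138, 30 (21.7%) in 22 genes were lower and 7 (5.07%) in 7 genes higher (background 8.97% and 10.1%). The median log2 fold change was -0.13 for these promoter peaks and -0.05 for all promoter peaks. These promoter peaks were also wider than all promoter peaks (median 2125.5 and 1421 bases) and richer in GC (median 53.6% and 50.0%). The part of width and GC content in the counts was not tested. Of the 465 other peaks, 66 (14.2%) were lower and 59 (12.7%) higher (background 6.83% and 18.7%). On day 1, 1 promoter peak was lower, at Kcna3, and 1 higher, at Kcnh7 (background 6.90% and 2.52%), with 4 lower and 37 higher among the others (background 0.815% and 6.46%). Within batches the day 3 promoter counts were 6 lower and 0 higher in batch 1, and 34 lower and 9 higher in batch 2, and those of other peaks 7 lower and 14 higher in batch 1, and 88 and 63 in batch 2. On day 1, batch 2 alone gave 15 lower and 6 higher promoter peaks and 28 lower and 82 higher others. Without a batch term day 3 had 8 lower and 2 higher promoter peaks and 25 lower and 27 higher others, and day 1 had 0 of each kind (DESeq2, with the batch term, called 7 lower and 1 higher promoter peaks and 10 lower and 41 higher others on day 1). Leaving out 1 library also moved these counts. On day 3, 19 promoter peaks were lower without day 3 replicate 2, and 2 higher without replicate 1 or 5 of day 0 or replicate 2 of day 3. On day 1, the higher other peaks were 2 without day 1 replicate 3, 3 without replicate 1 of day 0 and 4 without replicate 2 of day 1. The share of all peaks called was not worked out for these alternative fits, so their counts stand without a background.

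The promoter windows of 4 genes are shown because they lie inside promoter peaks described next and their genes differ in how RNA and peak changed: Kcna2 (RNA lower, peak not called), Kcnc1 (both lower), Kcnk2 (RNA higher, peak not called) and Kcnma1 (RNA higher, peak lower). Each is 300 bases, from 250 before to 50 after an annotated start, written 5′ to 3′ on the gene's strand, from RefSeq on GRCm38.p6. Capitals mark GC boxes, the letters GGGCGG on either strand, the motif of Sp1-like factors. Where a gene had several windows inside its peaks, the window with most GC boxes was printed.
Kcna2, chr3:107101317-107101616, plus strand: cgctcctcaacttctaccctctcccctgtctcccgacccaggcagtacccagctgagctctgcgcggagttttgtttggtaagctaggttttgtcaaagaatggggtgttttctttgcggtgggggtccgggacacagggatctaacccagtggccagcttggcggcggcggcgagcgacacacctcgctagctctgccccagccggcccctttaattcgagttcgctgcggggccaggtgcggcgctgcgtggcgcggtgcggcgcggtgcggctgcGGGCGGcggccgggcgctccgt
Kcnc1, chr7:46396218-46396517, plus strand: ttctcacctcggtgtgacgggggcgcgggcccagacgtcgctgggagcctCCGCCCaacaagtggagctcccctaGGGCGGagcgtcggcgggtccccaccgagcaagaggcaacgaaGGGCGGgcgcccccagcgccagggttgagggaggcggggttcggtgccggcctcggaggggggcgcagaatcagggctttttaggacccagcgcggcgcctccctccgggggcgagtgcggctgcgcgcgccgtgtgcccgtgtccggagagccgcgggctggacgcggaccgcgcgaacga
Kcnk2, chr1:189343658-189343957, minus strand: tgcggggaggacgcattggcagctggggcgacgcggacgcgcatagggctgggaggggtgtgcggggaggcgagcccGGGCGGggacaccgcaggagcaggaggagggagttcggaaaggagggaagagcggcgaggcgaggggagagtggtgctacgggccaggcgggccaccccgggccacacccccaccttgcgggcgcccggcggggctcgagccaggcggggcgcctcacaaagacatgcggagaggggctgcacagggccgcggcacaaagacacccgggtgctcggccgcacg
Kcnma1, chr14:24004156-24004455, minus strand: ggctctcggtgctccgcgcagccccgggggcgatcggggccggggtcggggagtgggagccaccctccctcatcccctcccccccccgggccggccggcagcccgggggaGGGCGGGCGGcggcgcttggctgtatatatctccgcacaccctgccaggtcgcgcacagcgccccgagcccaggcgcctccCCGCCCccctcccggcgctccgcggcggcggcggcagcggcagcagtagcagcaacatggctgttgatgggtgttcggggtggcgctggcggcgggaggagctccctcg
Kcna2 and Kcnk2 hold 1 GC box each and Kcnc1 and Kcnma1 3 each, and the windows hold 31, 41, 33 and 36 CpG in the order printed. Among these genes only Kcnk2 had further windows, and each of those holds 0 GC boxes. Of the 75 genes 54 matched a RefSeq promoter, with 78 windows, and the median CpG count was 9 there and 7 over all 32851 windows.

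Kcnma1, whose RNA was higher on day 3, had 4 promoter peaks and all 4 were lower on that day. At the most changed one (chr14:23551955-23556116) the lowest, median and highest library had 11.9, 14.6 and 19.9 CPM on day 0, 8.10, 12.4 and 12.8 on day 1 and 6.31, 8.58 and 10.6 on day 3. No day 3 library reached the lowest of day 0, and the change was log2 -0.82 ± 0.14 (SE, edgeR adjusted p = 0.000125), with log2 -0.66 in batch 1 (adjusted p = 0.0178) and -1.09 in batch 2 (3.70e-05). Another (chr14:23651206-23652563) changed by log2 -0.90 ± 0.15 (SE, edgeR adjusted p = 0.000129), with log2 -0.82 in batch 1 (adjusted p = 0.00668) and -1.08 in batch 2 (0.000208). The strongest of the 4 on day 0 covers an annotated RefSeq start (chr14:24001819-24005858) and had 25.6 to 35.1 CPM on day 3 and 36.6 to 37.5 on day 0 in batch 1, and 15.7 to 20.7 on day 3 and 23.6 to 35.1 on day 0 in batch 2 (log2 -0.46 ± 0.12, SE, edgeR adjusted p = 0.00562).

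At Kcnab2, whose RNA fell, the most changed promoter peak (chr4:152452196-152455454) had 11.4, 12.5 and 13.6 CPM on day 0, 9.28, 11.2 and 11.7 on day 1 and 6.60, 8.43 and 9.10 on day 3, again with no overlap of days 3 and 0. It changed by log2 -0.64 ± 0.10 (SE, edgeR adjusted p = 8.61e-05), with log2 -0.58 in batch 1 (adjusted p = 0.0276) and -0.79 in batch 2 (0.000321). The strongest Kcnab2 promoter peak on day 0 (chr4:152413955-152420801) was not called on day 3 (log2 -0.12 ± 0.12, SE, edgeR adjusted p = 0.522). Nor was the promoter peak at chr4:152445692-152449500 (log2 -0.16, edgeR adjusted p = 0.494). At Kcnd3 the peak at chr3:105456659-105458313 changed by log2 -0.64 ± 0.14 (SE, edgeR adjusted p = 0.00155), with log2 -0.57 in batch 1 (adjusted p = 0.0913) and -0.82 in batch 2 (0.000496). The Kcnd3 start itself (chr3:105452330) lies in another peak, chr3:105449548-105455614, which the authors annotated to Kcnd3os. That peak was stronger, with a day 0 median of 37.8 CPM against 6.64. It was not called on day 3 (log2 -0.15 ± 0.10, SE, edgeR adjusted p = 0.299). At Kcnc1 a broad peak over the start (chr7:46391407-46402476) changed by log2 -0.47 ± 0.11 (SE, edgeR adjusted p = 0.00232) with log2 -0.24 in batch 1 (adjusted p = 0.596) and -0.81 in batch 2 (3.45e-05), and did not pass in batch 1.

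Kcnh2 and Kcnk3 had lower peaks where RNA did not pass in the libraries labelled day 3. In those labelled day 2, Kcnk3 RNA was called lower (log2 -0.94) and Kcnh2 RNA was not called (log2 -0.22). Both named Kcnh2 peaks (chr5:24346943-24354407 and chr5:24318226-24323530) were lower on day 3 (log2 -0.52 and -0.38; batch 1 -0.32 and -0.37, batch 2 -0.81 and -0.48), as was that of Kcnk3 (chr5:30586548-30591421, log2 -0.50 ± 0.11 (SE, edgeR adjusted p = 0.00143); log2 -0.37 in batch 1 (adjusted p = 0.275) and -0.73 in batch 2 (0.000259)). The Kcnh7 peak called on day 1 (chr2:63181955-63182469) had 1.22, 1.59 and 1.60 CPM on day 1 and 0.602, 0.877 and 1.41 on day 0 (log2 0.93 ± 0.23, SE, edgeR adjusted p = 0.0273; batch 2 alone 0.89), and was not called without the batch term. Kcnh7 RNA was called lower on that day.

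Away from promoters the called peaks were spread over 38 of the 64 genes: 10 had lower peaks alone on day 3, 11 higher peaks alone and 17 both. Kcnma1 had 10 lower and 3 higher of 41 such peaks, and Kcnab1 7 lower and 3 higher of 25, although the RNA of both was higher on that day. Kcng4 had 3 lower of 6 and no higher one. Kcnk1, whose RNA rose on labelled day 3 alone, had 7 higher and 0 lower of 12. Each peak carries the gene to which the authors annotated it, and peaks of 1 gene are not independent.

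The 4 of these changes with the smallest adjusted p were gains, at Kcna3, Kcna1, Kcnd3os and Kcnmb2. Near Kcna1, a peak 7205 bases from the annotated start (chr6:126653589-126654009) had 1.94 to 2.62 CPM on day 3 and 0.326 to 0.917 on day 0 in batch 1, and 1.41 to 2.63 on day 3 and 0.343 to 0.626 on day 0 in batch 2. No library of day 3 overlapped day 0, and day 1 lay above day 0 and overlapped day 3 of batch 2, at 0.925 to 1.62 CPM (log2 2.12 ± 0.23, SE, edgeR adjusted p = 1.09e-06 on day 3). A peak assigned to Kcna3 (chr3:107002274-107003083), 33086 bases from its start and in an intron of another transcript, had 3.84 to 4.46 CPM on day 3 and 1.44 to 1.73 on day 0 in batch 1, and 3.19 to 4.23 on day 3 and 0.994 to 1.37 on day 0 in batch 2, again with no overlap (log2 1.52 ± 0.15, SE, edgeR adjusted p = 3.59e-07). RNA of Kcna3 passed on no day, and that of Kcna1 on day 2 alone. Among the lower peaks of smallest adjusted p were those of Kcng4, Kcnma1 and Kcnab1. In the first intron of Kcnab1 (chr3:65202962-65204645) the peak had 4.48 to 5.55 CPM on day 3 and 6.16 to 10.1 on day 0 in batch 1, and 3.63 to 4.35 on day 3 and 8.38 to 12.4 on day 0 in batch 2 (log2 -0.95 ± 0.17, SE, edgeR adjusted p = 0.000256), and in that of Kcnma1 (chr14:23706253-23707450) 3.21 to 4.30 CPM on day 3 and 4.93 to 7.77 on day 0 in batch 1, and 1.53 to 2.97 on day 3 and 4.98 to 6.12 on day 0 in batch 2 (log2 -0.99 ± 0.17, SE, edgeR adjusted p = 0.000169). Both fell in each batch with no overlap of day 3 and day 0. These peaks were chosen after their values were seen.

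**Figure D4:**
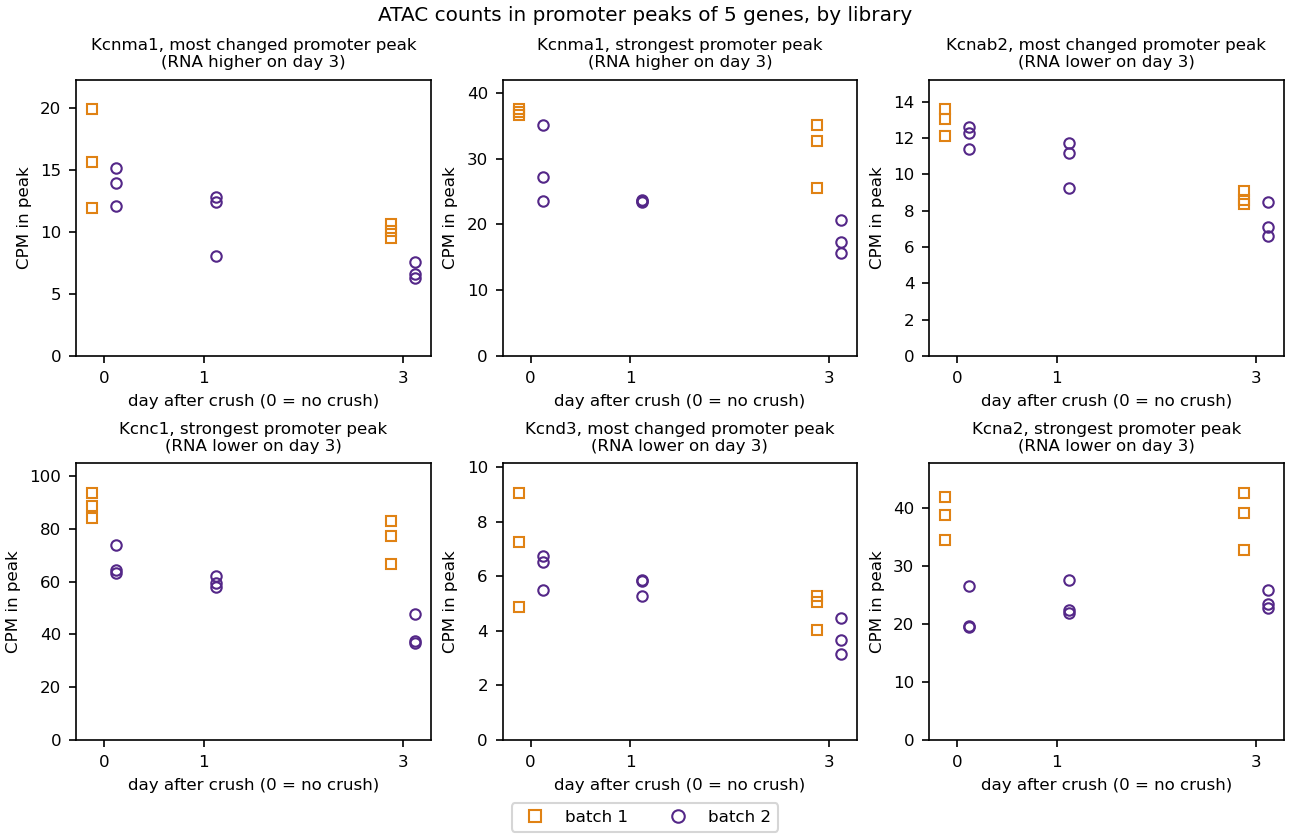
CPM (y axes, from 0, scaled per panel) in promoter peaks of 5 genes in each ATAC library, by labelled day, with batch 1 as squares and batch 2 as circles. Most changed means the smallest adjusted p on day 3 among a gene's promoter peaks, and strongest the highest mean on day 0. Both Kcnma1 peaks and those of Kcnab2, Kcnc1 and Kcnd3 have negative day 3 fold changes in each batch, while Kcna2 lies at 22.8 to 42.5 CPM on day 3 and 19.4 to 41.7 CPM on day 0.

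At Kcna2 and Kcnk2, RNA changed and the strongest promoter peak did not pass the test. Kcna2, with RNA log2 -1.69 ± 0.09 on day 3, had its strongest promoter peak (chr3:107100556-107104109) over an annotated start, at 32.8 to 42.5 CPM on day 3 and 34.4 to 41.7 on day 0 in batch 1, and 22.8 to 25.8 on day 3 and 19.4 to 26.5 on day 0 in batch 2. The days overlapped in both batches (log2 0.06 ± 0.11, SE, edgeR adjusted p = 0.724). Kcnk2, with RNA log2 1.71 ± 0.19, had its strongest (chr1:189342661-189344491) at 8.12 to 9.30 CPM on day 3 and 8.29 to 8.91 on day 0 in batch 1, and 5.15 to 7.13 on day 3 and 3.23 to 4.92 on day 0 in batch 2 (log2 0.28 ± 0.14, SE; adjusted p = 0.152 with edgeR). Batch 2 did not overlap there and batch 1 did.

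Over the 69 genes with a promoter peak, the strongest peak of each was set beside its RNA on day 3. Of 35 genes with lower RNA, 10 had a lower peak, 25 a peak not called and 0 a higher one. Kcnd3 is among the 10 by the peak annotated to it, not by the Kcnd3os peak over its start. Of 6 with higher RNA, Kcnma1 and Kcnab1 had a lower peak and 4 a peak not called. Of 28 whose RNA was not called, 7 had a lower peak, 3 a higher one and 18 neither. The share with a lower peak was thus similar in genes with lower RNA (10 of 35) and in those not called (7 of 28). With the RNA libraries labelled day 2 in place of day 3, 7 of 22 genes with lower RNA had a lower peak, and of 4 with higher RNA 2 did. The assays were made on different libraries, and the association was not tested. The share of strongest promoter peaks called over all genes was not worked out, so these counts stand without a background.

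**Figure D5:**
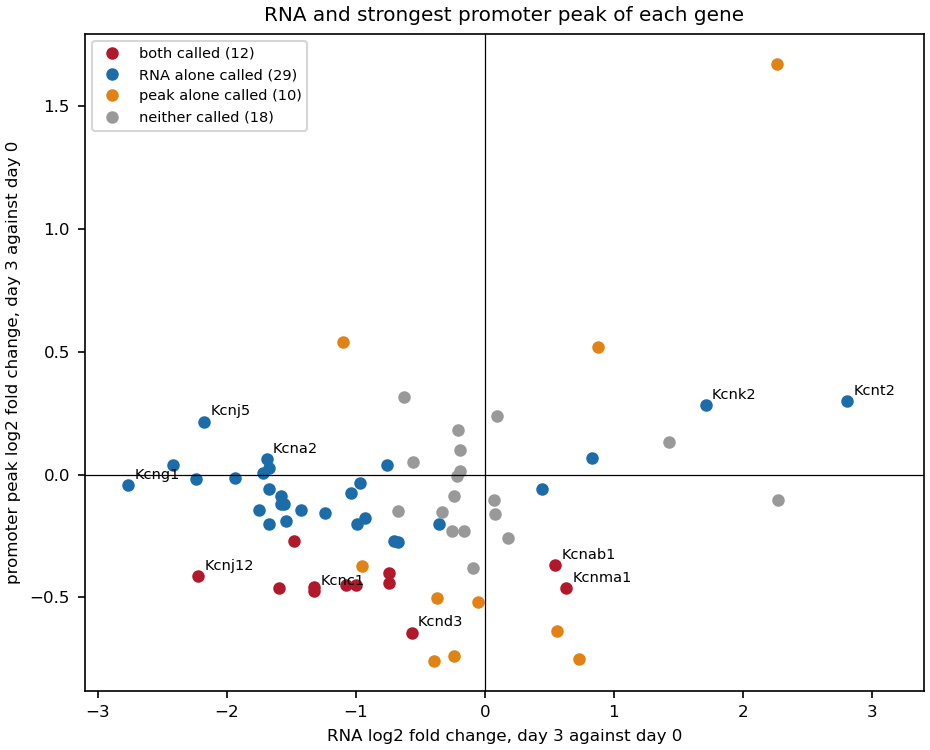
Log2 fold change of RNA (x axis) and of the strongest promoter peak (y axis), both for labelled day 3 against day 0, for 69 potassium channel genes, coloured by which of the tests passed, with the number of genes in the legend. RNA changes reach -2.76 and 2.81, while most peaks lie between -0.8 and 0.6, and Kcnma1 and Kcnab1 lie right of 0 on RNA and below 0 on the peak.

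A GC box was in 47.4% of the 78 windows and 35.7% of all windows. The E-box CAGCTG was in 26.9% and 16.3%, and the TATA box TATAAA in 5.13% and 13.6%. The AP-1 site TGANTCA, bound by Jun and its partners, was in 3.85% (3 windows) and 7.81%, and the full cyclic AMP response element TGACGTCA, bound by Creb and Atf factors, in 0 of the 78 and in 1.79%. Both strands were read, and overlaps between motifs were not removed. Matches describe the letters of these windows and were not tested.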

How the data were processed

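RNA-seq counts per gene were made by the authors with STAR, Picard and HTSeq on mm10, and ATAC-seq counts per peak with Trim Galore, Bowtie2, SAMtools, Picard, MACS2, featureCounts, bedtools and ChIPseeker on GRCm38/mm10, per the submitters' processing notes (tool versions: not given in sources used here). The RNA counts were not strand-specific, per the labels' protocols, and peaks were 1 common set over all ATAC libraries. The authors also deposited normalized log2 expression, used only for an alternative with limma, and a table with log2 fold changes and adjusted p-values headed days 1 and 3, which was copied and not refitted. Their deposited sample tables give the fraction of reads in peaks, a batch number and a score for each of the first 2 components of sequencing quality, the last used as an alternative covariate. Peak annotations are as deposited.

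Counts were tested with edgeR 4.0.16 (R 4.3.3; TMM, filterByExpr by day, quasi-likelihood F test, Benjamini-Hochberg over all genes or peaks tested, adjusted p under 0.05). All RNA libraries entered 1 fit on day, and all ATAC libraries 1 fit on day and batch. SE is the absolute log2 fold change over the root of F. The scripts were tested on simulated counts. Groups followed titles and treatment labels, 0 sample columns stayed unmapped, and no 2 libraries held identical counts.

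The 75 genes, their classes and the lists were chosen with earlier results of these data known. Genes were named by rule: the 4 of highest mean CPM in each class, the 8 largest rises and falls per day with mean CPM of at least 1, genes called in both directions, and up to 4 partners by adjusted p. Promoter peaks were at most 10 of these genes by p. Other genes are named to account for members, but 4 of the 75 and 1 partner gene are not reported here one by one, although all counts and medians include them. Alternatives were DESeq2 1.42.0, limma 3.58.1, DESeq2 size factors, other filters and designs, a term for replicate number and leaving out each library. Counting error is covered by the model, not by intervals.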

Additional observations from a re-analysis of the deposited data

Results flagged for a closer look

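Kcnq1ot1, the imprinted noncoding RNA, was the gene called in both directions against day 0, lower on day 1 and higher on days 2 and 4. Those days were not set against each other. Only day 3 was set against day 1, and on day 3 the gene was not called against day 0 (log2 0.07, edgeR adjusted p = 0.762). From day 1 to day 3 its log2 fold change was 0.63 ± 0.16 (SE, edgeR adjusted p = 0.00486), with 140.3, 137 and 230.5 CPM on day 3 and 101, 115 and 113 CPM on day 1, without overlap. The gene was picked from these same data.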

How the results depend on the processing

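Named genes and promoter peaks called in the fits reported were recomputed under the alternatives. This gave 2683 values, each result being counted again for every alternative, so they are not independent. None changed direction and 177 no longer passed the test. The threshold of a 2-fold change kept the fitted values, so it could not change a direction, and it gave 53 of the 177. Changes that were not called were not followed in this way. The balance of other peaks on day 3 did turn, from more lower than higher to more higher than lower, in batch 1 alone and without the batch term. DESeq2 called 7 lower promoter peaks and 10 lower other peaks on day 1. The single rise of day 1 was not called with DESeq2 size factors, limma, the day 0 and day 1 libraries alone or 2 sequencing components as terms (0 each), and the rises of day 2 fell to 1 with the last 2 of these. Those components also gave 3 rises on day 3 against day 1. At a fold change of at least 2, lower genes numbered 0, 9 and 24 on days 1 to 3 and 17 on day 3 against day 1, and higher genes 0, 0, 2 and 1 on days 1 to 4 and 3 on day 3 against day 1. For peaks, without the batch term 0 were called on day 1, and on day 3 8 promoter and 25 other peaks were lower and 2 and 27 higher. In batch 1 alone, an alternative chosen after seeing the data, 6 and 7 were lower and 0 and 14 higher on day 3. In batch 2 alone 15 and 28 were lower and 6 and 82 higher on day 1. With the trend on peak strength removed, day 1 had 0 lower and 3 higher promoter peaks and 8 higher other peaks. The cause of these shifts was not tested. Shares of all peaks called were not worked out for these alternatives, nor for the fits below that leave out 1 library or use a replicate block.

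Leaving out each library in turn gave 0 to 3 higher genes on day 1, 1 to 5 on day 2, 5 to 8 on day 3 and 2 to 5 on day 4, with 10 to 14, 19 to 25, 34 to 37 and 34 to 41 lower, and 46 to 49 genes over all days. Day 3 against day 1 had 4 to 6 higher and 28 to 33 lower. Promoter peaks were 0 to 3 higher and 0 to 4 lower on day 1, and 2 to 9 higher and 19 to 35 lower on day 3, and other peaks 2 to 50 higher and 0 to 7 lower on day 1, and 53 to 65 higher and 47 to 80 lower on day 3. Where 1 library of a day was left, it was assumed to vary like the other days.

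Replicate numbers showed no clear pairing of the RNA libraries. In 4 of 22 same-numbered pairs the deviations from the day means correlated above 0.1 over 5000 genes, and r ran from -0.154 to 0.223. Pairs of different number reached r of -0.327 and 0.327. Deviations from a mean of so few libraries are forced to mirror each other, so this check cannot exclude pairing. With a replicate block, 12, 26, 38 and 38 genes were lower and 1, 3, 6 and 3 higher on days 1 to 4, 31 lower and 5 higher on day 3 against day 1, and 48 were called over all days. The day 2 call of Kcnab1 (adjusted p = 0.051, edgeR) and the day 4 call of Kcnd3 (0.0562) were lost. For peaks the block in place of batch gave 0 lower and 1 higher promoter peaks and 1 lower and 21 higher others on day 1, and 25 and 60 lower and 6 and 57 higher on day 3.

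Counts of 0 to 9 in single libraries limit what can be said of Kcng1, Kcnk6 and Kcnt2.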
